A study of Homo sapiens with 4 samples.

Results

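The RNA of MHCC-97H cells that had received migrasomes was compared with that of MHCC-97H cells that had received PBS alone. MHCC-97H is an established, highly metastatic human hepatocellular carcinoma (HCC) line. Migrasomes (Migs) are large vesicles that a migrating cell leaves behind on its retraction fibers, and neighbouring cells can take them up. By their labels, all 4 cultures were wild-type MHCC-97H and were collected after 24 h. One received PBS. The others received 2 µg of Migs each. The Migs came from normoxic cells (normo-Migs), from hypoxic cells (hypo-Migs) or from hypoxic cells without CD147 (CD147KO-Migs). CD147 was therefore deleted in the cells that gave the Migs and not in the cells that were sequenced. The study asked how such Migs alter tumor cells that take them up, with sorafenib resistance and vessel-like growth in view. The 3 Mig libraries were taken as 1 side and the PBS library as the other.

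Each condition had 1 library, so the difference from PBS has no replicate check and no p-value is given. Treatment with Migs and any other difference between the PBS culture and the Mig cultures, the state or origin of the cells included, cannot be told apart. Every fold change below is a difference between cultures. Genes were kept if at least 1 library had 10 reads or more and the gene was not on chromosome X or Y. Of 58735 genes in the tables, 19214 were kept. A gene was called higher, or lower, when each of the 3 Mig libraries differed from PBS by at least 2-fold in that direction and the exact 95% interval of the ratio of reads excluded 1 in each pair. These intervals cover counting error only. Fold changes are differences of log2 CPM (reads scaled to the size of the library) between a Mig library and PBS, and 1 value for a gene is the mean of its 3. By this rule 2374 genes, or 12.4% of those tested, were higher with all Migs, and 1301 genes, or 6.77%, were lower. In bulk RNA, a gene read in fewer cells and a gene read at a lower level per cell cannot be told apart. Per gene, the median range of log2 values among the 3 Mig libraries was 0.25, with a 95th percentile of 1.88, and the median absolute difference from PBS was 0.55. For 56.6% of genes the 3 differences from PBS had the same sign and were larger than that range. All 3 differences share the PBS library, so an error in that library would shift them together and favour the same sign. The median fold change over all genes tested was 0.03 on the log2 scale.

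**Figure D1:**
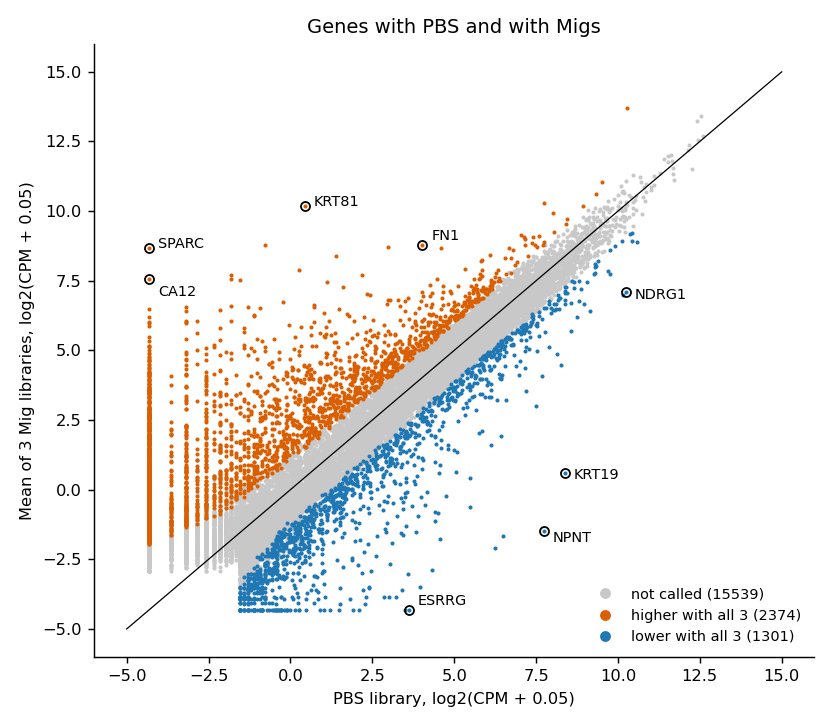
Each point is 1 of the 19214 genes, with the PBS library on the x axis and the mean of the 3 Mig libraries on the y axis, both as log2(CPM + 0.05). The 2374 genes called higher (orange) lie above the line of equal values and the 1301 called lower (blue) below it, and the vertical band at the left edge holds genes with 0 reads in PBS.

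The libraries held 33882496 reads on genes with PBS and 34559968 to 40285223 with Migs. Genes with at least 10 reads numbered 16197 with PBS and 16794 to 17416 with Migs. Transcripts of the mitochondrial chromosome took 2.69% of reads with PBS and 5.00% to 5.16% with Migs. The mitochondrial rRNAs took 0.15% and 1.34% to 1.47%. Their part in the differences below was not tested. Of 28 reference genes, 27 were not called, with a median of -0.09 on the log2 scale. ACTB, the cytoskeletal actin, had a log2 fold change of 0.13, and EEF1A1, a translation elongation factor, one of 0.86.

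The liver identity of the cells was checked first. Hepatocytes make most plasma proteins, a program that is held by factors such as HNF4A, FOXA2 and CEBPA and that HCC cells lose to varying degrees. Several defining markers were at or near the floor in every library. ALB (albumin), APOB, TTR and AFP (alpha-fetoprotein) had 0 reads in all 4 libraries, which allows up to 3 reads each. APOA1 had 2 reads with hypo-Migs and 0 elsewhere. Of 12 hepatocyte identity markers, 8 had 0 reads with PBS and 5 or 6 with Migs. Their summed level over the 7 members tested was 2.08 FPKM with PBS and 8.25 to 10.8 FPKM with Migs. FGB alone took 0 FPKM of that sum with PBS and 6.03 to 8.69 with Migs. Of the 7, 3 were higher, 1 lower and 3 not called, with a median log2 fold change of 0.28. HNF4A had 134 reads with PBS and 146, 246 and 141 with normo-Migs, hypo-Migs and CD147KO-Migs, the order used below. It was not called. CEBPA had 127 reads against 76, 114 and 86 and was not called either. FGB, the fibrinogen β chain, had 0 reads with PBS and 561, 827 and 832 with Migs. SERPINA1 was the lower member, with 25 reads against 2, 9 and 10. Albumin and alpha-fetoprotein were thus not detectable on either side at this depth, and FGB was read on the Mig side alone.

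The sharpest differences were genes read on 1 side and nearly absent on the other. A gene was counted as silent in PBS when PBS had 3 reads or fewer and each Mig library had at least 100. There were 232 such genes, 218 of them protein-coding. The opposite pattern, 3 reads or fewer in every Mig library and at least 100 with PBS, held for 12 genes, 11 of them protein-coding. SPARC, a secreted matricellular protein that binds collagen, had 0 reads with PBS and 13404, 16845 and 15206 reads with Migs. It was at least 4527-fold higher with Migs, counting 3 reads as the most that a count of 0 allows. CA12, a membrane carbonic anhydrase, had 0 reads with PBS and 6173, 7732 and 6653 with Migs, at least 2085-fold higher. Every Mig library was far above PBS for both genes, as the rule for silent genes requires.

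Among the others were surface and secreted proteins. ANPEP, the membrane aminopeptidase CD13, had 0 reads with PBS and 3615, 3541 and 2668 with Migs, at least 877-fold higher. SFRP1, a secreted inhibitor of Wnt signaling, had 0 against 2698, 3007 and 2306 reads. SDC2, a heparan sulfate proteoglycan of the membrane, had 0 against 2181, 2685 and 2270 reads. The bounds for SFRP1 and SDC2 were 758-fold and 737-fold. PLIN2, a coat protein of lipid droplets, had 2 reads with PBS and 3456, 3756 and 3035 with Migs. Its log2 fold change with normo-Migs, with a prior count of 2, was 9.80. The counting interval of the log2 ratio of reads, which uses no prior count, was 8.92 to 13.82. SLC6A15, a transporter of neutral amino acids, and STRA6, a receptor for retinol-binding protein, also had 2 reads each with PBS. They had 2911 to 3607 and 2266 to 2692 reads with Migs.

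The silent genes in the other direction had fewer reads. ESRRG, an orphan nuclear receptor, had 414 reads with PBS and 0 in each Mig library, at least 136-fold lower with Migs. FMOD (fibromodulin), a small proteoglycan that binds collagen, had 385 reads against 0, 0 and 0, at least 127-fold lower. PABPC4L had 313 reads with PBS and PCDH10, a protocadherin, had 272. No Mig library had more than 2 reads for either. HOXB2 and GFY had 176 reads each with PBS, and GALNT3, an enzyme of mucin-type O-glycosylation, had 166. They had 2 reads or fewer with Migs.

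Outside the silent genes, the largest differences were ranked by the Mig library nearest to PBS, among protein-coding genes that averaged 200 reads or more. The largest increases included keratin, matrix and detoxification genes. KRT81, a hair keratin, had 44 reads with PBS and 41256, 45973 and 38993 with Migs, a mean log2 fold change of 9.76. Its sequence is close to that of other hair keratins, so the split of reads among them is uncertain. COL5A2, a chain of type V collagen, had 18 reads against 14903, 18267 and 15633, a log2 fold change of 9.60. ALDH1A1, an enzyme that makes retinoic acid and a marker of progenitor cells in many tissues, had 8 reads against 6832, 8311 and 7772, a log2 fold change of 9.51. NID2, a basement membrane protein, had 8 against 6767, 7386 and 6533, a log2 fold change of 9.37. The next were AKR1C2, an aldo-keto reductase of steroid metabolism, MMP2, FBLN2 (fibulin 2, a matrix protein), LBH, EGFLAM (pikachurin, a matrix protein) and NTS (neurotensin). Their mean log2 fold changes ran from 9.05 for AKR1C2 to 7.86 for NTS. All 3 Mig libraries were high for each, as the ranking requires.

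The largest decreases, ranked in the same way, included epithelial genes. NPNT (nephronectin), an integrin ligand in basement membranes, had 7181 reads with PBS and 4, 27 and 5 with Migs, a mean log2 fold change of -9.47. MAL2, a protein of apical transport in hepatocytes and other epithelia, had 2582 reads against 7, 11 and 3, a log2 fold change of -8.35. DNAJA4, an HSP40 cochaperone, had 3058 against 17, 4 and 7, and its log2 fold change was -8.30. KRT19, the keratin of bile duct and progenitor cells, had 11287 against 75, 52 and 32, and its log2 fold change was -7.83. In each case the highest Mig library was far below PBS, as the ranking requires. EDN2 (endothelin 2), HSD17B2 (which oxidizes estradiol), SOX15, KCTD12, AATK and PRSS56 followed, with mean log2 fold changes from -6.07 for EDN2 to -4.44 for AATK.

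The promoters of SPARC, CA12, ALDH1A1 and NPNT are shown as examples of the genes named above. Their differences were large, in both directions, and each gene has an entry in the promoter table used. They were picked after their values were seen. Each run holds 250 bases before and 50 after the transcription start in RefSeq (GRCh38.p14), with CG dinucleotides in capitals.
SPARC, chr5:151686866-151687165, minus strand: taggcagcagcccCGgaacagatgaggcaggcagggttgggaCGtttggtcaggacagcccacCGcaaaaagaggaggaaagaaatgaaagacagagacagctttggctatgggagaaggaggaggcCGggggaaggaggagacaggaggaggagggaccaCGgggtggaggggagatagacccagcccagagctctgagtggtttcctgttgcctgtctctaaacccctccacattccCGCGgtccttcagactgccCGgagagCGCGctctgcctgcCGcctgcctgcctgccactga
CA12, chr15:63381797-63382096, minus strand: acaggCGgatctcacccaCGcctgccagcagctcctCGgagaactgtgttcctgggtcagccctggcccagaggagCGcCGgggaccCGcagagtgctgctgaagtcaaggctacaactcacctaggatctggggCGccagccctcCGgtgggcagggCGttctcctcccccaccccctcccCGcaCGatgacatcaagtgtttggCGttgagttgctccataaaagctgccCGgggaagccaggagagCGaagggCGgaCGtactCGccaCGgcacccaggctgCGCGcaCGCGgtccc
ALDH1A1, chr9:72953004-72953303, minus strand: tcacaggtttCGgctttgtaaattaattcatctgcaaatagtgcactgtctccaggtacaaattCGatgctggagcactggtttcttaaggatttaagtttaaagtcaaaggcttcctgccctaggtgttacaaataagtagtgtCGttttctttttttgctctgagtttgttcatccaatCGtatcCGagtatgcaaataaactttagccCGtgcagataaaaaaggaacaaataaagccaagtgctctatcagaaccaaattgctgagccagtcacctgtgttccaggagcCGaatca
NPNT, chr4:105895221-105895520, plus strand: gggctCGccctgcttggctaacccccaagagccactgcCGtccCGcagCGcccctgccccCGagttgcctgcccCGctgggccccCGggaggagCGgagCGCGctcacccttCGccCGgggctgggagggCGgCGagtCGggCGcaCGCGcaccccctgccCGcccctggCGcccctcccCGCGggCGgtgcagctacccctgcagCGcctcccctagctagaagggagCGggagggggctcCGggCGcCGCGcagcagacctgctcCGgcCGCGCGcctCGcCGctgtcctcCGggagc
They hold 11, 22, 7 and 36 CG dinucleotides in that order. The ratio of observed to expected CG was 0.40, 0.66, 0.57 and 0.77. Of all 33725 promoters in the table, 49.0% had a ratio of at least 0.6, and 79.6% of those matched to tested protein-coding genes did. The 3 genes that were higher thus fell on both sides of that value. A comparison of promoters between called and other genes is not given, since under 80% of the called genes had an entry (73.2% of those higher and 75.2% of those lower).

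Mesenchymal genes were higher in a larger share than all genes. Of 36 tested, 16 were higher (44.4%, against 12.4% of all genes), 4 lower (11.1%, against 6.77%) and 16 not called, with a median log2 fold change of 0.82. FN1 (fibronectin) had 548 reads with PBS and 15712, 18900 and 13976 with Migs. COL5A1 had 5742 against 19283, 22079 and 17552 reads, and TGFBI, a matrix protein induced by TGF-β, had 3601 against 11623, 13861 and 9660. Their log2 fold changes were 4.80, 1.69 and 1.61. SNAI1 and TWIST1, which drive epithelial-mesenchymal transition (EMT), were higher by 2.45 and 2.99 on the log2 scale. SNAI2, ZEB1 and ZEB2, 3 other EMT factors, were not called (-0.05, 0.76 and -0.53). The mesenchymal list was not uniform. CDH2 (N-cadherin) had 2984 reads with PBS and 1274, 1532 and 1229 with Migs, and AXL, a receptor tyrosine kinase, had 4696 against 1867, 2130 and 1918. LOX, which cross-links collagen, was lower by 1.22 on the log2 scale. POSTN (periostin) was lower too but had only 10 reads with PBS. VIM (vimentin) had 9767 reads with PBS and 9755, 11298 and 9064 with Migs and was not called.

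Epithelial junction genes went both ways. Of 39 tested, 7 were higher (17.95%, against 12.4% of all genes), 11 lower (28.2%, against 6.77%) and 21 not called. The median was -0.36. OCLN (occludin) had 611 reads with PBS and 41, 34 and 24 with Migs, a log2 fold change of -4.23. MARVELD2 (tricellulin), its partner at tricellular junctions, had 459 against 38, 53 and 40. Other lower genes were PKP2 and PKP3 (desmosomal plakophilins), CLDN7, TJP3, CRB3, CDH3, ST14 (matriptase) and the regulators ESRP2 and EHF. Against that direction, CDH1 (E-cadherin) had 0 reads with PBS and 114, 123 and 112 with Migs, at least 35.3-fold higher. RAB25, a GTPase of epithelial recycling endosomes, had 0 against 90, 123 and 122. CGN (cingulin), DSC2 (desmocollin 2) and SPINT2 were higher by 3.78, 4.30 and 2.49 on the log2 scale. Tight junction genes were thus higher (CGN) and lower (OCLN) in the same libraries. KRT8 and KRT18, the keratin pair of simple epithelia, were not called, at 0.44 and 0.86.

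Basement membrane and adhesion genes showed large single differences around a median of 0.05. Of 37 tested, 9 were higher (24.3%, against 12.4% of all genes) and 5 lower (13.5%, against 6.77%). The linker NID1 (nidogen 1) had 0 reads with PBS and 596, 734 and 572 with Migs. LAMA4 had 39 reads against 1103, 1146 and 876, and COL18A1 56 against 1266, 1391 and 1283. The laminin genes LAMA5, LAMB1, LAMB2 and LAMC1, with 3700 reads or more in every library, were not called. The integrin subunit ITGB8 had 2059 reads with PBS and 308, 382 and 398 with Migs, a log2 fold change of -2.58. ITGA6 was lower by 1.18 on the log2 scale. HSPG2 (perlecan) was lower by 1.49 and AGRN (agrin) by 1.12, a call that ended without X and Y in the scaling. Laminin and collagen chains were therefore among the higher genes, and the heparan sulfate proteoglycans HSPG2 and AGRN among the lower.

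Progenitor and bile duct markers split in the same way. Of 23 tested, 9 were higher (39.1%, against 12.4% of all genes), 5 lower (21.7%, against 6.77%) and 9 not called. SOX9, the factor of bile duct cells, had 7 reads with PBS and 327, 441 and 391 with Migs. SPP1 (osteopontin) had 0 against 428, 408 and 463. THY1 (CD90) had 11 against 1681, 2082 and 1859, and SALL4, an oncofetal factor of HCC, had 2 against 992, 1206 and 1037. For SALL4 the log2 ratio with normo-Migs had a counting interval of 7.12 to 12.02. EPCAM and CD24, surface markers of liver progenitors, were higher by 1.39 and 2.12 on the log2 scale. KRT7, like KRT19 a bile duct keratin, had 46770 reads with PBS and 17940, 19191 and 16648 with Migs. MUC1, an epithelial mucin, had 9636 against 923, 1150 and 1105, a log2 fold change of -3.26. The keratins and MUC1 were thus lower while SOX9, SPP1 and SALL4 were higher.

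Genes of liver function were described next. Of 37 plasma protein genes, 19 were tested. Of those, 8 were higher (42.1%, against 12.4% of all genes), 3 lower (15.8%, against 6.77%) and 8 not called. The 3 fibrinogen chains were higher. FGB had 0 reads with PBS and 561, 827 and 832 with Migs, FGA had 0 against 395, 493 and 462, and FGG had 6 against 205, 322 and 381. RBP4, which carries retinol, had 33 against 630, 818 and 895 reads, and CP (ceruloplasmin) 63 against 631, 996 and 948. VTN (vitronectin) was lower, with 561 against 188, 179 and 234 reads. C3, the central complement protein, had 20296 reads with PBS and 21044, 27210 and 27396 with Migs and was not called. Of 16 hepatocyte enzymes and transporters tested, 6 were higher (37.5%), 2 lower (12.5%) and 8 not called. ASS1, a urea cycle enzyme, had 5933 reads against 14348, 17419 and 17141, and HPD, of tyrosine breakdown, 618 against 1444, 1987 and 1903. CPS1, the first enzyme of the urea cycle, had 60590 reads with PBS and 59306, 76879 and 68079 with Migs and was not called. Of 20 hepatocyte transcription factors, 5 were higher (25%) and 2 lower (10%). FOXA2 had 0 reads with PBS and 60, 43 and 41 with Migs, TBX3 had 1005 against 4261, 5657 and 4935, and ONECUT2 had 4012 against 675, 985 and 738.

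Hypoxia response genes were more often lower. Of 30 tested, 11 were lower (36.7%, against 6.77% of all genes), 2 higher (6.67%, against 12.4%) and 17 not called. The median was -0.44. NDRG1 had 41209 reads with PBS and 4892, 5958 and 4287 with Migs, a log2 fold change of -3.12. HK2 (hexokinase 2) had 15098 against 3681, 4427 and 3930. SLC2A1 (the glucose transporter GLUT1) had 15215 against 6353, 7217 and 5972. CA9, ADM, VEGFA, PDK1, PFKFB4, ENO2, ALDOC and ANKRD37 were lower as well, by 1.15 (VEGFA) to 2.29 (ADM) on the log2 scale. The 2 higher genes were CA12 and SLC2A3 (the transporter GLUT3). SLC2A3 had 27 reads with PBS and 3639, 4614 and 3421 with Migs, a log2 fold change of 6.99. GLUT1 was thus lower and GLUT3 higher. HIF1A, which encodes the oxygen-regulated subunit of the hypoxia factor HIF-1, had a log2 fold change of -0.06. The glycolysis enzymes ENO1, LDHA and TPI1 were not called (0.25, 0.24 and 0.05).

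The genes by which the study followed vasculogenic mimicry (VM), the forming of vessel-like channels by tumor cells, were mixed. Of 14 tested, 6 were higher (42.9%, against 12.4% of all genes), 0 lower (against 6.77%) and 8 not called. MMP2, a gelatinase, had 6 reads with PBS and 3272, 3515 and 2836 with Migs. ID1, an inhibitor of DNA-binding factors, had 4803 against 17985, 20813 and 17932. SNAI1, TWIST1 and CDH1 were among the others. CDH5 (VE-cadherin) had 84 reads against 30, 72 and 59 and was not called, nor was MMP9, which had 6 reads against 12, 8 and 12. KDR (VEGFR2) had 0 reads in 3 libraries and 2 with CD147KO-Migs. CDH1, which is a negative marker of VM, was higher in the same libraries as MMP2.

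Of 38 genes of the PI3K/AKT core, 9 were higher (23.7%, against 12.4% of all genes) and 2 lower (5.26%, against 6.77%). The other 27 were not called, and the median was 0.16. The differences lay mainly in receptors and in isoforms. IGF1R, the receptor of insulin-like growth factors, had 3486 reads with PBS and 13689, 16859 and 14120 with Migs. PDGFRB had 70 against 1747, 2446 and 2166. EGFR had 21254 reads against 9352, 11108 and 9619, and MET, the receptor of hepatocyte growth factor, 13236 against 6196, 7498 and 5950. PIK3CD, a catalytic subunit of PI3K, had 70 reads with PBS and 1570, 1940 and 1745 with Migs. IRS1, ERBB3, FGFR1, FGFR2 and INPP4B were also higher, FGFR2 with only 6 to 16 reads with Migs. AKT1, AKT2, MTOR and PIK3CB, with over 1000 reads in every library, were not called.

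Genes that mark Migs or their uptake mostly did not differ by 2-fold. BSG, which encodes CD147, had 48157 reads with PBS and 34051, 37109 and 34021 with Migs, a log2 fold change of -0.53. TSPAN4 and ITGA5, proteins enriched on Migs, had log2 fold changes of -0.75 and -0.38. Of 12 genes, only the lysophosphatidic acid receptors LPAR1 and LPAR3 were called, both higher (16.7%, against 12.4% of all genes). LPAR3 had 0 reads with PBS and 517, 530 and 461 with Migs, at least 151.5-fold higher. LPAR1 had 0 against 194, 292 and 234, at least 65.5-fold higher. LPAR6 had 4 reads with PBS and 7, 13 and 15 with Migs and was not called. LPAR1 and LPAR3 were thus not detectable with PBS at this depth.

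HOX genes, which hold positional identity and are expressed in order along each cluster, showed a pattern by position. Of 32 tested, 11 were higher (34.4%, against 12.4% of all genes), 6 lower (18.75%, against 6.77%) and 15 not called. In the HOXA cluster, HOXA2, HOXA3, HOXA4 and HOXA5 were all higher. HOXA3 had 38 reads with PBS and 300, 374 and 375 with Migs, and HOXA5 had 104 against 327, 399 and 387. HOXA9, HOXA10, HOXA11 and HOXA13, at the other end of the cluster, were all lower. HOXA13 had 2364 reads against 481, 561 and 470, a log2 fold change of -2.30, and HOXA10 had 993 against 452, 517 and 418. HOXA6 and HOXA7, between them, were not called. The HOXB cluster did not follow this order, since HOXB2 and HOXB6 were lower and HOXB13 was higher by 1.72 on the log2 scale. In the HOXC and HOXD clusters every called gene was higher. HOXD10 had the largest difference, with 12 reads against 172, 228 and 212. The counts were taken per gene, and overlapping or antisense transcripts of these clusters could share reads.

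**Figure D2:**
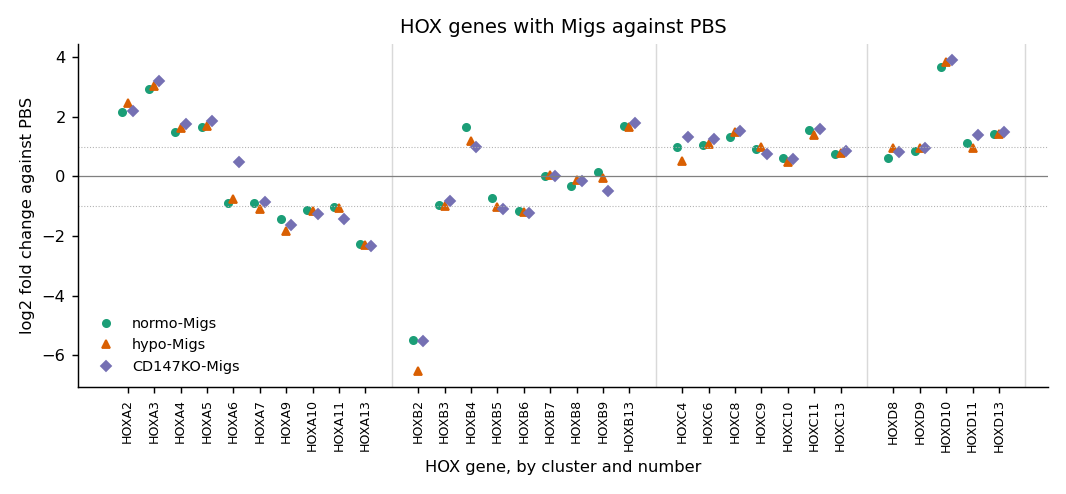
log2 fold change against PBS (y axis) of 31 HOX genes, by cluster and number (x axis), with 1 symbol per Mig library and dotted lines at 2-fold. In HOXA the 4 genes shown from HOXA2 to HOXA5 lie above 1 and the last 4 below -1 in every Mig library, and HOXB2, with 2 reads or fewer with Migs, is the lowest point.

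Imprinted genes are read from 1 parental copy. Of 23 tested, 8 were higher (34.8%, against 12.4% of all genes), 1 lower and 14 not called, with a median of 0.27. PEG10 had 7217 reads with PBS and 40553, 51998 and 46061 with Migs, and its neighbour SGCE had 691 against 1620, 2067 and 1711. KCNQ1OT1, an antisense RNA that silences its imprinted domain, had 0 against 160, 190 and 180. MEG3 had 0 against 53, 65 and 30. H19 was the lower gene, with 798 reads with PBS and 0, 27 and 2 with Migs. Of 6 tested genes that are deleted in part of the human population, 3 were higher (50%, against 12.4% of all genes) and 3 not called. GSTM1, a glutathione transferase, had 0 reads with PBS and 202, 275 and 203 with Migs, at least 66.7-fold higher. Its neighbour GSTM2 had 2 reads against 12, 23 and 24, and its log2 ratio with normo-Migs had a counting interval of 0.44 to 5.81. GSTM genes are near copies, so reads can be split between them. GSTM1, H19 and KCNQ1OT1 were called, so by the rule every Mig library lay on the same side of PBS.

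Called genes also lay side by side on the chromosomes. Runs of at least 4 neighbouring tested protein-coding genes with the same call numbered 23 for higher genes (103 genes) and 5 for lower genes (25 genes). Of all 13896 protein-coding genes tested, 13.7% were higher and 5.91% lower. How many such runs these shares alone would give was not tested. Positions are in hg38. On chromosome 11 (101451564 to 102339403) TRPC6, ANGPTL5, CEP126, YAP1 and BIRC3 were all lower. YAP1, the coactivator at the end of the Hippo pathway, had 38369 reads with PBS and 4375, 5136 and 4393 with Migs, a log2 fold change of -3.13. BIRC3, an inhibitor of apoptosis, had 6988 against 534, 704 and 623. The 5 genes together had 48328 reads with PBS and 5011 to 5994 with Migs. On chromosome 8 (88032009 to 91087095) the 8 genes from MMP16 to OTUD6B, with RIPK2, NBN and DECR1 among them, were higher. They summed to 4948 reads with PBS and 13101, 15679 and 13455 with Migs. The lower run of 8 protocadherins from PCDHB8 to PCDHB15 on chromosome 5 rested on few reads, 352 with PBS and 42 to 62 with Migs over all 8, and these genes are near copies.

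Other runs held gene families. On chromosome 10, KLF6, AKR1E2, AKR1C1, AKR1C2 and AKR1C3 were higher. AKR1C1 had 153 reads with PBS and 5957, 8618 and 8521 with Migs, and AKR1C3 had 1165 against 5002, 6658 and 5911. The AKR1C genes are close copies, and their reads can be misassigned among them. On chromosome 4 the chemokine genes CXCL8, CXCL1, CXCL5 and CXCL3 were higher together with RASSF6. CXCL5 had 0 reads with PBS and 961, 1424 and 1206 with Migs, CXCL1 had 0 against 358, 498 and 372, and CXCL8 had 16 against 317, 416 and 397. These chemokines attract neutrophils. On another stretch of chromosome 4, TLR3, a sensor of double-stranded RNA, was higher in a run of 6 genes with PDLIM3, SORBS2, FAM149A, CYP4V2 and CCDC110. PDLIM3 had 0 reads against 559, 741 and 637. On chromosome 9, JAK2, INSL4, PLGRKT, CD274 (PD-L1) and PDCD1LG2 (PD-L2) were higher. CD274 had 0 reads with PBS and 77, 98 and 95 with Migs, and JAK2 had 240 against 576, 670 and 648. On chromosome 2 a run from SLC8A1 to KCNG3 held PKDCC, a secreted tyrosine kinase, with 71 reads against 5450, 7194 and 6626.

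Whole chromosomes were shifted as well. Over protein-coding genes that averaged 50 reads or more, the median log2 fold change was 0.45 on chromosome 10 (480 genes), 0.35 on chromosome 8 and 0.28 on chromosome 14. It was -0.48 on chromosome 16 (559 genes), -0.35 on chromosome 21 and -0.26 on chromosome 3. On chromosome 10, 86 genes were higher and 7 lower, and on chromosome 16, 33 were higher and 49 lower. The medians of the 3 Mig libraries lay within 0.065 of each other on every autosome. They share the PBS library, so their closeness is no check on that library. DNA copy number was not measured, and its part in these medians was not tested.

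Genes of growth and stress programs were read against the 12.4% of all genes that were higher and the 6.77% that were lower. Of 36 cell cycle and replication genes, 1 was higher, 2 were lower and 33 were not called, with a median of -0.14. RRM1, a subunit of ribonucleotide reductase, had 29030 reads with PBS and 7462, 8574 and 7419 with Migs, and PLK1, a mitotic kinase, 11742 against 4837, 5347 and 4597. E2F1 had 1169 against 3465, 3794 and 3749. Of 29 genes of the unfolded protein and ATF4 response, 2 were higher (SDF2L1 and PHGDH) and 27 not called. Of 31 immediate early and heat shock genes, 3 were higher (9.68%) and 4 lower (12.9%). HSPA1A, an inducible HSP70, had 14602 reads with PBS and 2886, 2894 and 2357 with Migs, and HSPA1B, its near copy, 8458 against 2934, 3193 and 2677. FOSL1, an AP-1 subunit, had 1500 against 413, 462 and 427. The higher genes were KLF6 and the orphan nuclear receptors NR4A2 and NR4A3.

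Interferon and sterol genes were higher about as often as all genes. Of 34 interferon response genes, 4 were higher (BST2, MX1, RSAD2 and CMPK2), XAF1 was lower and 29 were not called. The share higher was 11.8%, and the median was 0.42. On log2(FPKM + 1), the calls of MX1, RSAD2, CMPK2 and XAF1 were lost. BST2 (tetherin) had 8999 reads with PBS and 20278, 23696 and 22117 with Migs, and MX1, an antiviral GTPase, 53 against 278, 412 and 301. Of 27 genes of cholesterol synthesis and uptake, 4 were higher (14.8%) and 0 lower, with a median of 0.35. HMGCS1, which makes HMG-CoA, had 548 against 2442, 2573 and 2252 reads.

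Of the 13 protein-coding genes of the mitochondrial genome, 1 was higher (7.69%, against 12.4% of all genes) and 12 were not called. The median was 0.48, and in FPKM 12 of the 13 lay above PBS in every Mig library. MT-ND1, a subunit of complex I, had 24993 reads with PBS and 73603, 85795 and 73021 with Migs. The adjoining rRNA gene MT-RNR2 had 41909 against 429744, 552461 and 480290. The rRNA thus differed more than the mRNAs of the same chromosome. Of 1174 lincRNAs tested, 154 were higher (13.1%, against 12.4% of all genes) and 151 lower (12.9%, against 6.77%). Of 1522 antisense genes, 105 were higher (6.90%, against 12.4%) and 136 lower (8.94%, against 6.77%). NEAT1, the RNA scaffold of paraspeckles, had 44786 reads with PBS and 18901, 24657 and 20812 with Migs. UCA1 had 4315 against 928, 1138 and 672. SNHG4, a host gene of small nucleolar RNAs, was higher, with 1489 against 3265, 4040 and 3608 reads.

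Markers of other cell types were compared as well. PTPRC (CD45), the general leukocyte marker, had at most 2 reads in any library. The 8 leukocyte markers tested summed to 0.67 FPKM with PBS and 2.97 to 3.24 with Migs. Of them, 5 were higher (62.5%, against 12.4% of all genes) and 0 lower (against 6.77%). CD14, CSF1R, CD8A and CORO1A were among the higher ones, with at most 174 reads. Of 9 endothelial markers tested, PECAM1 was higher (11.1% of them) and 2 were lower (22.2%). The sum of the 9 was 14.1 FPKM with PBS and 14.8 to 16.1 with Migs. VWF and KDR, which define endothelium, had at most 7 reads. Of 11 fibroblast and stellate cell markers, 6 were higher (54.55%) and 2 lower (18.2%), with a sum of 3.63 FPKM against 21.2 to 22.8. COL1A1, DCN, LUM, PDGFRB, FAP and DES were the higher ones, and COL1A1 reached 3472 to 4017 reads with Migs against 681 with PBS. The markers COL1A2 and PDGFRA had at most 2 reads in any library. The neural markers tested, 5 genes, summed to 2.19 FPKM with PBS and 4.96 to 5.58 with Migs, but their median log2 fold change was -0.80. Of these, 1 was higher, 1 lower and 3 not called. SNAP25, a synaptic SNARE protein, was higher, with 61 reads against 536, 562 and 579. It took 0.53 FPKM of the sum with PBS and 4.1 to 4.9 with Migs. MBP was lower, with 824 reads against 327, 420 and 340. The part of these markers in the differences from PBS was not tested. Of 2 erythroid genes tested, none was called, and HBA2 had 0 reads with PBS and 99, 7 and 1 with Migs.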

How the data were processed

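RNA of the 4 MHCC-97H cultures was extracted with TRIzol, and libraries were made with a SMARTER mRNA-Seq kit. The submitters' processing notes name CASAVA 1.8, fastp, HISAT2 2.0.5, featureCounts 1.5.0-p3 and the build hg38, and the strand setting of the counting is not given in the sources used here. The authors deposited raw read counts per gene and, from these, FPKM values (reads scaled by gene length and library size) for the same genes. Both tables give 1 column per condition, so differences from PBS cannot be separated from differences between cultures. The labels put normo-Migs with normoxic cells, and the labels were followed.

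TMM factors were estimated with edgeR 4.0.16 in R 4.3.3 over the 19895 genes with at least 10 reads in 1 library, and log2 CPM were computed with a prior count of 2. The 681 genes of chromosomes X and Y were then left out. Intervals of the ratio of reads were exact (Clopper-Pearson). The calling steps were run on simulated counts with known changes. Those counts carried counting error only, so the run cannot check calls against variation between cultures. The library totals of 33882496 to 40285223 reads set the precision, and 3 reads was taken as the limit that a count of 0 allows.

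Genes were named by rule: the 10 largest differences each way among protein-coding genes that averaged 200 reads or more, the 8 highest silent genes each way, up to 4 called members each way and 2 not called of each of 27 gene lists, the 3 highest lincRNAs each way, and the longest runs by position, with ties kept. Further list members and MT-RNR2 were named after their values were seen. The members and lists were chosen with earlier results of these data known. Gene lists were described by counts and medians with no test. DESeq2 1.42.0 and edgeR's quasi-likelihood test, with the 3 Mig libraries as 1 group, were run as alternatives only. Called protein-coding genes had a median GC content of 51.1% (higher) and 52.6% (lower) in their longest GENCODE transcript, and those not called had 48.4%. Promoters came from RefSeq and were matched by gene ID or symbol. Some genes that the rule names are not reported here.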

Additional observations from a re-analysis of the deposited data

How the results depend on the processing

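No paired analysis was possible because each condition had 1 library and the shared number 1 pairs nothing. The counts of 2374 higher and 1301 lower genes rest on the filter, the scale and the fold. When every library had to reach 10 reads they were 1203 and 715, on log2(FPKM + 1) 816 and 402, and with a log2 fold change of at least 2 they were 1468 and 382. Over protein-coding genes alone 821 were lower. All other alternatives kept both counts within 1.5 times. Leaving out 1 Mig library gave 2552 to 2645 higher and 1528 to 1542 lower genes, with fewer pairs to pass. These include every gene called with all 3 by construction, since the main rule needs each pair to pass. The 3 Mig libraries taken as replicates gave 2503 and 1347 genes by the edgeR quasi-likelihood test, of which 2256 and 1095 were shared with the main calls, and 2357 and 1091 by DESeq2. The PBS side then still holds 1 library. No gene was called in the opposite direction under any alternative. Genes silent in PBS numbered 350 with at least 50 reads and 136 with at least 200 reads on the other side. Genes silent with Migs numbered 4 with 0 reads and 28 with up to 10 reads on the silent side, and 25 and 5 with at least 50 and 200 reads on the other. Of 207 named genes, 47 lost the call on log2(FPKM + 1), which shrinks low genes, among them FOXA2, MX1, RSAD2, CMPK2, XAF1, LOX, FGFR1, HOXA10 and HOXA11. On log2(FPKM + 0.1) 10 did. AGRN and the collagen chaperone SERPINH1 lost the call when TMM left out X and Y, and SDF2L1 lost it under library totals. The median of the endothelial list ranged from -0.43 to 0.31 and changed sign. Of the 26 lists with at least 3 members tested, no other median did. Scaling moved the median of all genes from -0.01 to 0.04.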
